A study of Gallus gallus with 6 samples.

Results

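The FGF, BMP, TGF-beta and Wnt pathway genes are the genes with a differentially methylated region (DMR) between lens epithelial and lens fiber cells whose symbols begin with the names of these pathways' ligands, receptors, inhibitors and adaptors. The same rule takes in genes of insulin and IGF, PDGF, VEGF, ERBB and hedgehog signaling. WNT7B was left out by the rule. It found 68 of the 3888 genes with a DMR (2939 distinct symbols), and these 68 genes held 189 of the 7621 DMRs, on 22 of 34 chromosomes. Having a DMR is thus a condition of membership and not a result. The symbols were checked against what their proteins are known to do. As relatives, or as sharing only the first letters of a pathway name, 7 members were marked. They stay in the counts and pathway groups below and were left out only in an alternative run. IGF2BP3 encodes an RNA-binding protein, and APCDD1 is a membrane Wnt inhibitor outside the APC family. FSTL1, FSTL3 and FSTL4 are follistatin-like proteins, PTCHD1 is a patched-domain protein, and HHIPL1 is a relative of the hedgehog inhibitor HHIP. FGF12, FGF13 and FGFRL1, which also differ from the ligands and kinase receptors of their family, were not among these 7.

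DNA came from lenses of untreated White Leghorn chick embryos at embryonic day 13, dissected into epithelial cells and fiber cells, with 25 lenses pooled for each of 3 replicates per cell type. Pooling hides differences between embryos, and the cell types are taken as labelled, since expression of their marker genes was not analysed here. Whole genome bisulfite sequencing gave the mCG level, the percentage of molecules methylated at cytosines followed by guanine. The authors called the DMRs over the replicates, and the table holds 1 level per DMR and cell type, pooled over 3 replicates, so the spread between replicates and the read depth behind each level are unknown. Counts and intervals below therefore describe DMRs and genes, which are not replicates, and no p-value is given. A gain is a DMR with a higher level in fiber cells and a loss is one with a lower level. Changes are fiber minus epithelial level in percentage points.

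In the vertebrate lens, FGF receptors signal through RAS and MAPK and drive epithelial cells at the equator to elongate into fibers, and Sprouty and SPRED proteins hold this signal back. BMP and TGF-beta ligands bind paired serine-threonine kinase receptors that phosphorylate SMAD proteins, and TGF-beta is also known for turning lens epithelial cells into scar-forming cells in cataract. Wnt ligands bind Frizzled receptors with the co-receptors LRP5 and LRP6, Dishevelled proteins carry the signal, and AXIN and APC proteins take part in beta-catenin breakdown. R-spondins strengthen Wnt signals through the receptors LGR4, LGR5 and LGR6.

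The only member sequences read here were stretches that matched transcription factor motifs inside DMRs, from the part of the study's motif table available here. The study listed matches only for motifs it found enriched. It searched only gains of genes less expressed in fiber cells and losses of genes more expressed there. The stretches numbered 68 in 15 of the member genes, with overlapping stretches and matches on both strands counted separately. All 68 lay inside a DMR of their gene, since the study searched only DMRs. A CG was held by 19 of the 68, beside 574 of all 1816 stretches read. The hexamer CACGTG, a palindrome that reads the same on both strands and holds the CG that methylation acts on, was in 10 of the 68 stretches (14.7%) and in 286 of all 1816 stretches read (15.7%). The stretches with this hexamer are shown as examples of methylatable motif letters inside gains of FGFR2, FGFR3, WNT2B and FGF12, whose levels are given below. Other stretches that hold a CG, in gains of these and further members, are not shown. That the stretches lie in gains, and which genes appear, follows in part from how the study chose the regions and motifs. Overlapping stretches are shown once, from 5′ to 3′ on the listed strand with CACGTG in capitals, in galGal6 coordinates. A match is a description of letters and not a binding site.
FGFR2, chr6:31838113-31838121, plus strand: gcCACGTGt
FGFR3, chr4:83411589-83411598, plus strand: cgtCACGTGc
FGFR3, chr4:83411615-83411624, minus strand: gCACGTGccc
FGFR3, chr4:83439782-83439793, plus strand: agcCACGTGgca
WNT2B, chr26:3498768-3498776, minus strand: gcCACGTGt
WNT2B, chr26:3499066-3499077, plus strand: cccCACGTGctc
FGF12, chr9:13590424-13590433, plus strand: gCACGTGccc

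Most DMRs of these genes were more methylated in fiber cells. The 189 DMRs comprised 170 gains and 19 losses, so that 89.9% were gains (95% Wilson interval 84.8% to 93.5%), beside 86.6% of all DMRs. Averaged over its DMRs, 62 of the 68 genes had a positive change (91.2%, Wilson interval 82.1% to 95.9%), beside 84.8% of all genes with a DMR. The 6 genes with a negative average were RSPO1, SPRY2, RSPO3, HHIPL1, LTBP1 and FGFR4. The median change of a member DMR was 20.4 percentage points (95% order-statistic interval 18.9 to 22.4), beside 19.9 over all DMRs. Both the share of gains and the size of the change in these genes were thus close to those of the whole table.

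Member gains went from a median epithelial level of 23.5% to a median fiber level of 48.2%. Member losses went from 51.7% to 24.6%. The largest gain was in an intron of TGFBR3, a TGF-beta co-receptor (45.9 points), and the largest loss in an intron of FGF12 (-43.3 points). Epithelial levels below 10% were found in 24 of the 189 DMRs (12.7%, beside 11.6% of all DMRs). Each of these 24 was a gain, as were 99.8% of all DMRs with such a level. From such a level less than 10 points could be lost. A change of 30 points or more in size was found in 35 member DMRs (18.5%, beside 19.3%). The change divided by the authors' test statistic per site gives an approximate standard error at a single CG site. In member DMRs it had a median of 3.48 points and ranged from 0.786 to 5.43 points. It is not the error of a DMR mean.

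**Figure D1:**
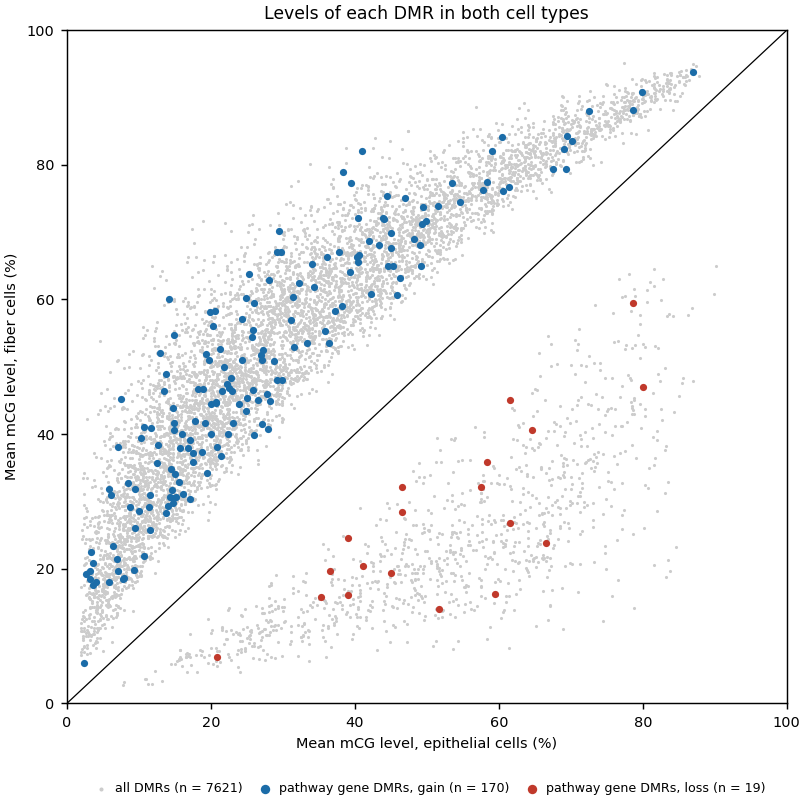
Mean mCG level (%) of each DMR in epithelial cells (x axis) and fiber cells (y axis), with all 7621 DMRs in grey, the 170 gains of the pathway genes in blue and their 19 losses in red. The line marks equal levels, and the pathway gene DMRs are spread over the range of the grey points on both sides of it.

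**Figure D2:**
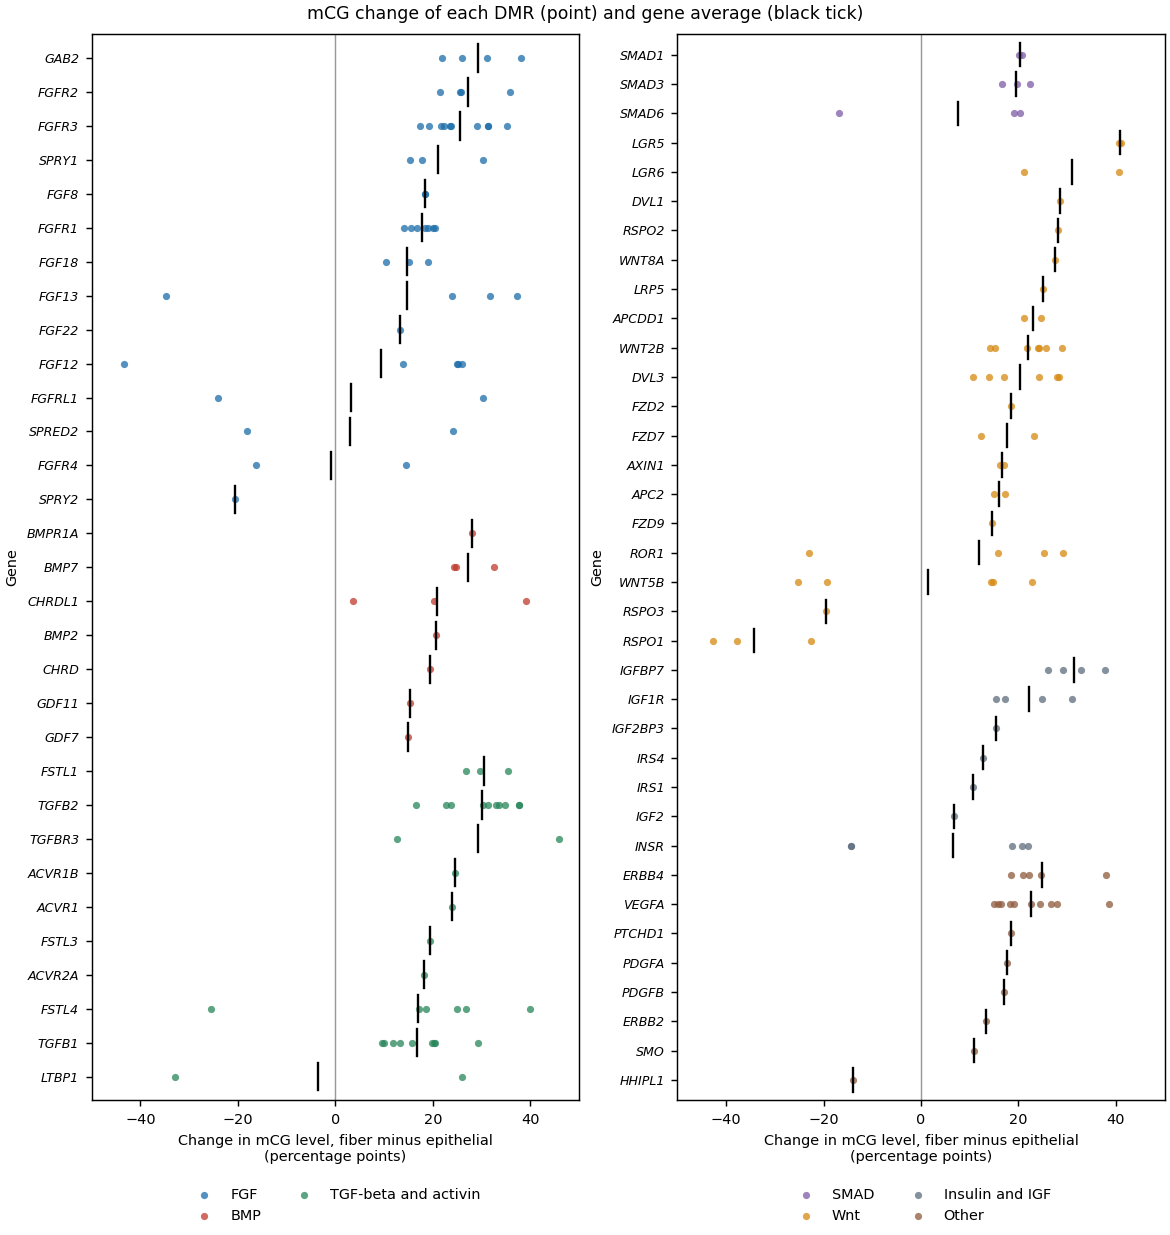
Change in mCG level (percentage points, fiber minus epithelial) of 187 of the DMRs as points and the average per gene as a black tick, for 67 of the genes grouped by pathway. Ticks lie right of 0 in 61 of these genes, and 11 genes have points on both sides of 0.

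The FGF genes held 44 gains and 6 losses in 14 genes (88.0% gains, Wilson interval 76.2% to 94.4%, beside 86.6% of all DMRs). The ligands FGF8, FGF18 and FGF22 had gains in all 6 of their DMRs, with averages of 18.5, 14.8 and 13.2 points. Receptor DMRs numbered 25, with 23 gains and 2 losses. FGFR1, FGFR2 and FGFR3, which encode tyrosine kinase receptors of the pathway, as FGFR4 does, had gains only, 21 in all. GAB2, an adaptor that links receptors to PI3 kinase and MAPK signaling, had 4 gains in introns between 193944752 and 193995800 of chromosome 1 and an average of 29.3 points, the highest of the FGF group. Its epithelial levels ran from 7.05% to 31.1% and its fiber levels from 38.1% to 58.1%.

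FGFR2 (ENSGALG00000009495) had 4 gains on chromosome 6. The level went from 20.3% to 56.1% at 31838045 to 31838608, the DMR that holds the CACGTG stretch shown above, and from 31.5% to 52.9% at 31863629 to 31863857. Both overlap an exon and intron. The other two, both in introns, went from 22.8% to 48.3% at 31894861 to 31895623 and from 12.6% to 38.4% at 31905550 to 31905827. All 4 fiber levels of FGFR2 were above all 4 epithelial levels, but how many of all genes share this was not counted.

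FGFR3 (ENSGALG00000015708) had 10 gains over 42632 bp of chromosome 4, with an average of 25.5 ± 5.90 points (SD over its 10 DMRs). The DMR with the lowest coordinates, at 83411472 to 83411979 with exon, intron and 3′ UTR annotation, went from 22.9% to 46.4%. The highest epithelial level was 53.6%, at 83417894 to 83418115, where the fiber level was 77.3%. The lowest epithelial levels of FGFR3 lay at its highest coordinates, where 3.28% rose to 22.5% at 83452255 to 83453281 and 3.56% rose to 20.9% at 83453898 to 83454103. The DMR at the lowest coordinates holds the first pair of FGFR3 stretches printed above, and the remaining stretch lies at 83439023 to 83439970, where the level went from 14.8% to 43.9%. FGFR1 (ENSGALG00000039786) had 7 gains within 10424 bp of chromosome 22, between 2647113 and 2657536, with an average of 17.7 ± 2.35 points (SD over 7 DMRs). Each of these 7 overlapped a CpG island or an island shore. Their changes lay between 14.1 and 20.4 points although epithelial levels ran from 11.6% to 58.3%.

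FGFR4 and FGFRL1 differed from these receptors in having a DMR in each direction. In FGFR4 (ENSGALG00000028543, chromosome 13) a CpG island DMR over an exon and intron fell from 61.5% to 45.1% at 10985252 to 10985449. Its promoter DMR at 10988430 to 10988540, on an island shore, rose from 27.1% to 41.5%, and the average of both was -0.986 points. In FGFRL1, a receptor relative without a kinase domain, an intron DMR rose from 32.2% to 62.5% at 85099876 to 85100540 of chromosome 4, and another fell from 64.6% to 40.6% at 85224403 to 85224867. The average of 3.14 points therefore describes neither DMR of FGFRL1.

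The Sprouty genes, which encode feedback inhibitors of FGF and other receptor kinases, went in opposite directions. SPRY2 (ENSGALG00000016906) had a single DMR, at 154058983 to 154059274 of chromosome 1 in an exon and 5′ UTR, and its level fell from 41.1% to 20.4%. In the authors' area statistic, which sums the test statistics over the sites of a DMR, this was -283. SPRY1 (ENSGALG00000042067) had 3 gains within 2992 bp of chromosome 4. The exon DMR at 53356728 to 53358520 rose from 36.1% to 66.4% and the promoter DMR at 53359249 to 53359719 from 11.4% to 29.2%. The small exon DMR between them, at 53358644 to 53358748, rose from 14% to 29.4%, so all 3 DMRs of SPRY1 moved the same way. SPRED2, a related inhibitor, had an intron gain from 16% to 40.1% at 10665278 to 10665665 of chromosome 3 and an intron loss from 46.5% to 28.4% at 10703620 to 10703811.

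FGF12 and FGF13 encode FGF homologous factors, which stay inside the cell and are known as partners of sodium channels rather than as ligands. Both carried gains and 1 loss, all in introns. FGF12 (chromosome 9) had 4 gains between 13589694 and 13601616, of 14 to 26.0 points. The first of them, which holds the stretch printed above, lay at 13589694 to 13590492 and rose from 40.3% to 66.4%. After a gap of 69459 bp, at 13671076 to 13671307, the FGF12 level fell from 59.5% to 16.2%. All 5 DMRs were also annotated to ENSGALG00000052927. FGF13 (chromosome 4) had a loss from 61.5% to 26.8% at 4833554 to 4833709 and 3 gains of 24.0 to 37.3 points between 4848114 and 4858867. In both genes the loss was the outermost DMR and started from the highest epithelial level of the gene.

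The BMP group had gains in all 11 DMRs of its 7 genes (Wilson interval 74.1% to 100%, beside 86.6% gains over all DMRs). Its median change was 20.8 points, beside 19.9 over all DMRs. The BMP and GDF ligand genes BMP2, BMP7, GDF7 and GDF11, placed in this group by symbol, averaged 20.8, 27.3, 14.9 and 15.3 points. The BMP2 DMR lay in promoter and intron annotation at 15207759 to 15208019 of chromosome 3 and rose from 25.8% to 46.6%. The GDF7 promoter DMR, at 101915279 to 101915481 of the same chromosome, was already at 69.4% in epithelial cells and reached 84.3%. The receptor gene BMPR1A averaged 28.1 points. Of the antagonists, which bind BMP ligands outside the cell, CHRD had a promoter DMR on an island shore at 16098245 to 16098461 of chromosome 9 that rose from 11.6% to 31.0%, and its relative CHRDL1 had 3 gains with an average of 21.0 points. CHRDL1 held the smallest change of any member DMR, 3.54 points.

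The TGF-beta and activin group had 34 gains and 2 losses in 10 genes (94.4% gains, Wilson interval 81.9% to 98.5%, beside 86.6% of all DMRs). Its ligands TGFB1 and TGFB2 alone held 19 DMRs, all of them gains. TGFB2 (ENSGALG00000009612) had 10 gains over 55257 bp of chromosome 3, with an average of 30.1 ± 6.97 points (SD over 10 DMRs). Epithelial levels ran from 60.4% at 19472892 to 19473337, an exon and intron DMR where the fiber level was 84.1%, down to 2.57% at 19505535 to 19505635, where the fiber level was 19.2%. The DMRs of TGFB2 were long, up to 3694 bp at 19498853 to 19502546, where 10.7% rose to 41.0%. TGFB1 (ENSGALG00000031325, chromosome 32) showed a different range, with epithelial levels of 33.4% to 78.6% and fiber levels of 53.6% to 88.1% in its 9 intron DMRs. Its average was 16.7 ± 6.38 points (SD over 9 DMRs). Of these 9 DMRs, 8 were also annotated to another gene, so they cannot be assigned to TGFB1 alone.

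The receptor genes ACVR1, ACVR1B and ACVR2A, which encode activin and BMP receptors, averaged 23.9, 24.6 and 18.1 points. TGFBR3 (ENSGALG00000006038, chromosome 8) had intron gains from 7.03% to 19.7% at 14783704 to 14783897 and from 14.2% to 60.1% at 14816878 to 14817206. The follistatin-like genes FSTL1, FSTL3 and FSTL4 averaged 30.6, 19.5 and 17.0 points. FSTL1 had 3 intron gains on chromosome 1, from 41.9% to 68.7% at 80652579 to 80652877, from 24.9% to 60.3% at 80653098 to 80653881, and from 25.9% to 55.5% at 80675488 to 80675893. FSTL4 (chromosome 13, between 16985278 and 17124012) had 5 gains of 17.2 to 40.0 points and, among them, 1 intron loss from 45.0% to 19.4% at 17041803 to 17042036. LTBP1, whose protein holds latent TGF-beta in the matrix, had an intron gain from 5.86% to 31.9% at 31273104 to 31273334 of chromosome 3. A further 2892 bp on, at 31276227 to 31276369 over an exon and intron, the LTBP1 level fell from 80.0% to 47.0%, the highest epithelial level of any member loss.

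SMAD1 and SMAD3, the signal carriers of BMP and TGF-beta receptors respectively, had 5 gains in 5 DMRs, beside 86.6% gains over all DMRs. SMAD1 averaged 20.3 points and SMAD3 19.6 points. SMAD6 (chromosome 10), an inhibitory SMAD, had intron gains from 25.0% to 45.3% at 19120623 to 19120701 and from 15% to 34.1% at 19122642 to 19122824. The remaining DMR of SMAD6, at 19131647 to 19131775, fell from 36.5% to 19.6%. All 3 DMRs of SMAD3 also carry the annotation of AAGAB.

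The Wnt group had 37 gains and 7 losses in 18 genes (84.1% gains, Wilson interval 70.6% to 92.1%, beside 86.6% of all DMRs). The R-spondin genes RSPO1 and RSPO3 had losses only and RSPO2 had a gain. RSPO1 (ENSGALG00000001946) had 3 losses and no gain within 1049 bp of chromosome 23, all in introns. Its level fell from 66.6% to 23.9% at 3867332 to 3867405, from 58.4% to 35.8% at 3867670 to 3867835, and from 51.7% to 13.9% at 3868193 to 3868380. The average of -34.4 ± 10.5 points (SD over 3 DMRs) was the lowest of the 68 genes. RSPO3 (ENSGALG00000042607) had 1 intron DMR at 59396405 to 59396553 of chromosome 3, which fell from 35.3% to 15.7%. RSPO2 (ENSGALG00000030030) had 1 DMR over promoter, exon and intron at 132120156 to 132120500 of chromosome 2, which rose from 46.9% to 75.1%.

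The R-spondin receptor genes had gains only. LGR5 (ENSGALG00000010163) had the highest average of the 68 genes, 40.9 points, from 2 intron DMRs within 58751 bp of chromosome 1. They rose from 40.9% to 82.1% at 36354006 to 36354491 and from 38.3% to 78.9% at 36412617 to 36412756. These LGR5 DMRs hold 12 and 10 listed CG sites, beside a median of 24 in member DMRs. LGR6 (ENSGALG00000000568, chromosome 26) rose from 29.4% to 70.2% at 436369 to 436710 and from 37.2% to 58.3% at 441531 to 442038. The 4 receptor DMRs had a median change of 40.7 points, and 4 of the 5 R-spondin DMRs were losses. These are few DMRs in 5 genes, and the difference between ligand and receptor genes was not tested. With area statistics at or above the median of all DMRs, LGR6 kept 1 DMR, with 21.1 points, and RSPO1 kept 1, with -37.8 points. No DMR of LGR5, RSPO2 or RSPO3 was left under that alternative.

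Among the Wnt ligands, WNT2B and WNT8A averaged 22.0 and 27.5 points and WNT5B 1.5 points. WNT2B (ENSGALG00000034196) had 7 gains within 13416 bp of chromosome 26, which included 3 of the 5 member DMRs with the largest area statistics. Its promoter DMR at 3492977 to 3493216 rose from 4.0% to 18.1% and the next, in an intron at 3497266 to 3498464, from 3.26% to 18.5%. Further along the gene the levels of both cell types were higher. The DMR at 3498660 to 3501012, which holds both WNT2B stretches printed above, rose from 8.50% to 32.8%, the one at 3502612 to 3504688 from 31.4% to 60.4%, and the one at 3504843 to 3505103 from 49.4% to 71.1%. In the DMR at the highest coordinates, 3505379 to 3506392, both levels were lower again, with a rise from 27.0% to 51.0%. Of the 7 DMRs, 5 were also annotated to another gene, ENSGALG00000035270. WNT5B (chromosome 1) held the closest pair of DMRs with opposite directions in any member gene, 429 bp apart. A gain from 59.1% to 82.0% at 60888746 to 60888943 was followed by losses from 57.5% to 32.2% at 60889373 to 60889520 and from 78.7% to 59.4% at 60889852 to 60890028. Outside them lay gains from 19.4% to 34.2% at 60887498 to 60887765 and from 13.8% to 28.3% at 60914749 to 60914908.

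The Frizzled receptor genes FZD2, FZD7 and FZD9 averaged 18.5, 17.7 and 14.6 points and the co-receptor gene LRP5 averaged 24.9 points. The exon DMR of FZD2 at 3904213 to 3905287 of chromosome 27 rose from 24.9% to 43.4% over 214 listed CG sites and had the largest area statistic of all member DMRs, 1576. ROR1, a receptor for WNT5 ligands, had 3 gains of 15.9 to 29.2 points on chromosome 8. In between them, at 28342057 to 28342247, its level fell from 39.1% to 16.1%. The cytoplasmic genes had gains in all 11 DMRs, beside 86.6% gains over all DMRs. The Dishevelled genes DVL1 and DVL3 averaged 28.6 and 20.3 points, and AXIN1 and APC2 averaged 16.7 and 16.1 points. The intron DMR of DVL1 at 2301098 to 2301252 of chromosome 21 rose from 18.2% to 46.7%. DVL3 (chromosome 9) had 6 gains between 15950539 and 15972634, with epithelial levels of 6.45% to 44.1% and fiber levels of 18.4% to 72.2%. APCDD1 averaged 22.9 points.

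In the insulin and IGF group 15 of 17 DMRs were gains (88.2%, Wilson interval 65.7% to 96.7%, beside 86.6% of all DMRs). Both losses were in INSR, the insulin receptor gene. INSR (chromosome 28) fell from 39.0% to 24.6% at 4223378 to 4223487 and from 46.5% to 32.1% at 4235941 to 4236082, both over an exon and intron. It rose from 18.8% to 37.4% in the 3′ UTR at 4218614 to 4218737, from 17.1% to 39.0% in an intron at 4246434 to 4246923 and from 38.1% to 59.0% in the promoter at 4254626 to 4254815. The related IGF1R had 4 intron gains of 15.5 to 30.9 points between 17167563 and 17222763 of chromosome 10, and none of its DMRs was a loss. Its epithelial levels ran from 20.9% to 72.5% and its fiber levels from 38.0% to 88.0%. IGFBP7, a secreted IGF-binding protein gene, had 4 intron gains within 5799 bp of chromosome 4, from 49165551 to 49171349, with an average of 31.5 ± 5.04 points (SD over 4 DMRs). The IGFBP7 levels were 10.3% to 40.6% in epithelial and 39.5% to 67.0% in fiber cells. IGF2 averaged 6.77 points, the adaptor genes IRS1 and IRS4 averaged 10.6 and 12.8 points, and IGF2BP3 averaged 15.4 points.

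The remaining ligand and receptor genes had 22 gains and 1 loss in 9 genes (95.7% gains, beside 86.6% of all DMRs). VEGFA (ENSGALG00000010290), the growth factor that guides blood vessels, had 10 gains over 19281 bp of chromosome 3 with an average of 22.5 ± 7.26 points (SD over 10 DMRs). Its DMR with the largest area statistic, an intron DMR of 128 listed CG sites at 30793037 to 30793925, rose from 3.17% to 19.7%. Its promoter DMR at 30798238 to 30798454 rose from 49.2% to 65.0%. ERBB4, a neuregulin receptor gene, had 5 intron gains of 18.5 to 37.9 points between 3138808 and 3447650 of chromosome 7. Its epithelial levels ran from 15.7% to 48.2% and its fiber levels from 37.9% to 77.4%. ERBB2 averaged 13.3 points. PDGFA and PDGFB averaged 17.7 and 17.0 points. SMO, which carries the hedgehog signal across the membrane, averaged 10.9 points, and PTCHD1 averaged 18.4 points. HHIPL1 had the loss, from 20.9% to 6.88% in an intron at 48337254 to 48337475 of chromosome 5.

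Several of these genes carried many DMRs. Of the 68 genes, 18 had at least 4 DMRs (26.5%, beside 10.5% of all genes with a DMR) and 6 had at least 7 (8.82%, beside 3.5%). These 6 were FGFR1, FGFR3, TGFB1, TGFB2, VEGFA and WNT2B. They held 53 DMRs, 28.0% of the member DMRs, and all 53 were gains (beside 86.6% of all DMRs). DMRs of a gene often share a direction, as given below. The share of gains in all genes with at least 7 DMRs was not counted. Of the 53 DMRs, 8 of the 9 in TGFB1 and 5 of the 7 in WNT2B were also annotated to another gene. Gene length was not analysed here, and the genes with a DMR include some without a symbol, which the rule cannot find. In each of the 6 genes the ranges of the cell types overlapped, so that a fiber level in one DMR was below an epithelial level in another. How many of all genes share this was not counted.

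**Figure D3:**
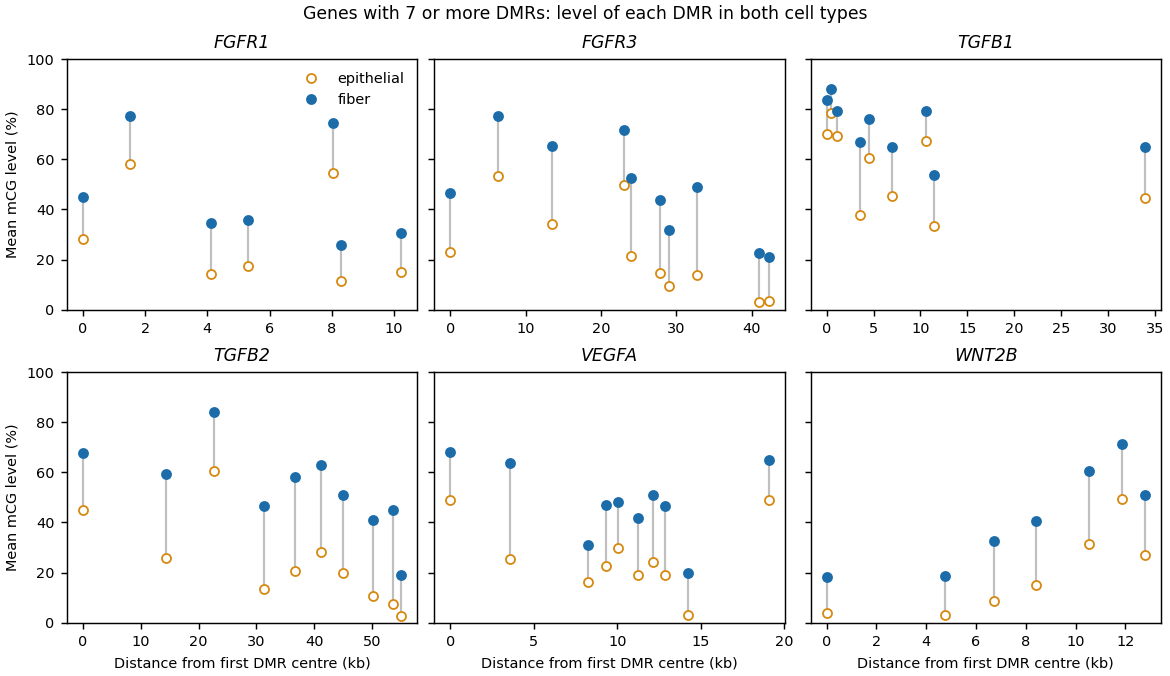
Mean mCG level (%) of each DMR in epithelial (open) and fiber cells (filled) against the distance from the centre of the first DMR (kb) in the 6 genes with at least 7 DMRs. The filled point lies above the open one in all 53 DMRs, and in FGFR3, TGFB2 and WNT2B the lowest levels lie at one end of the gene.

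Gains and losses were mixed within 11 of the 40 genes with at least 2 DMRs (27.5%, beside 22.5% of all such genes). Gains only were found in 28 of the 40 (beside 73.5% of all such genes) and losses only in RSPO1 (beside 3.97%). Of the 11 mixed genes 9 had a positive average. The 19 losses lay in 15 genes, and 13 of them in genes that also had gains. Of the 19, 14 lay in introns only (beside 59.8% of all losses), 5 overlapped an exon (beside 18.4%), and 10 started from an epithelial level above 50% (beside 59%). All losses include DMRs outside genes, whereas every member DMR is annotated to a gene. The intron and exon shares are therefore not on an equal footing. Losses made up 13.4% of all DMRs. DMRs that followed each other in a gene at less than 1000 bp had the same direction in 37 of 38 pairs (97.4%, beside 96.4% over all genes), and over any distance in 106 of 121 pairs (87.6%, beside 86.6% over all genes). Both shares were close to those of the whole table. The exception among the close pairs was WNT5B.

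**Figure D4:**
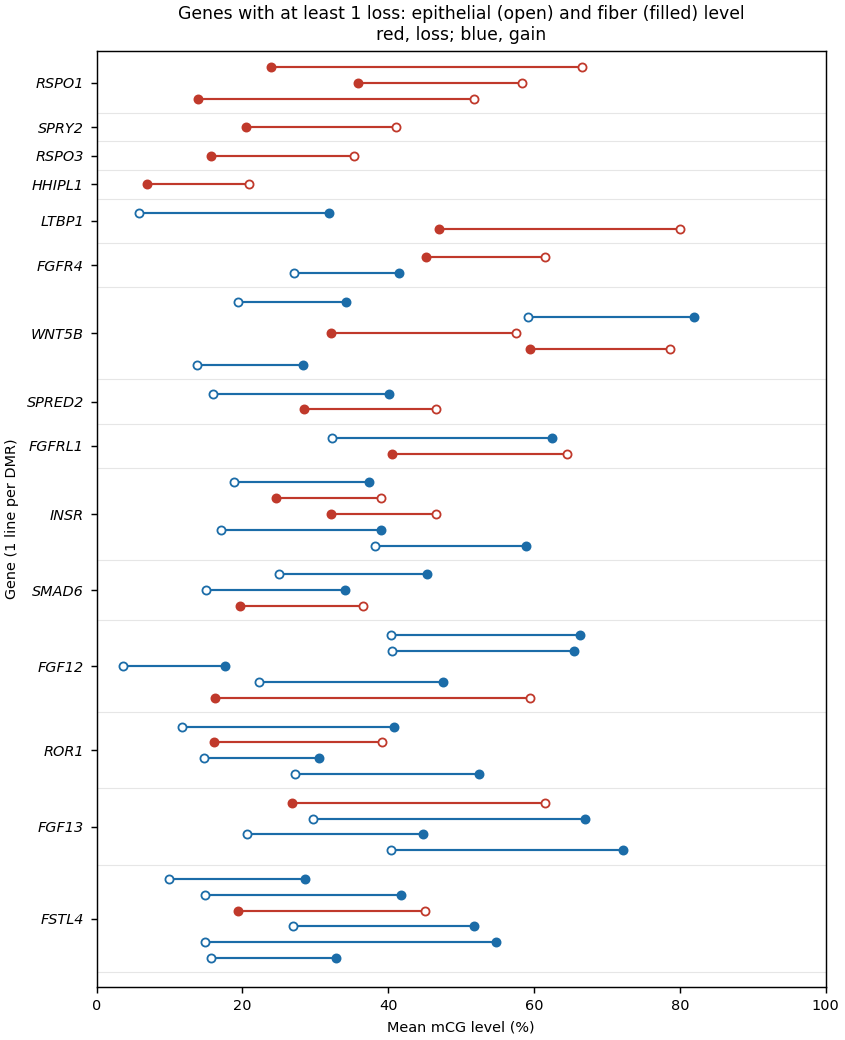
Mean mCG level (%) in epithelial (open) and fiber cells (filled) for each DMR of the 15 genes with at least 1 loss, in red for losses and blue for gains. RSPO1, SPRY2, RSPO3 and HHIPL1 have only red lines, and the other 11 genes have both colours.

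Promoter DMRs, in the stretch upstream of a start site, were found in 9 member genes, with 1 in each: BMP2, CHRD, FGFR4, GDF7, INSR, RSPO2, SPRY1, VEGFA and WNT2B. All 9 were gains (Wilson interval 70.1% to 100%), beside 86.6% of all promoter DMRs, with changes of 14.1 to 28.2 points and a median of 17.7 points. The promoter changes of FGFR4 and INSR thus went against the losses in their gene bodies. In all, 18 of the 189 member DMRs were annotated to a promoter of some gene (13.7% of all DMRs were). Exons were overlapped by 60 member DMRs (25.7% of all DMRs overlapped one), of which 55 were gains (91.7%, beside 90.5% of all exon DMRs). All DMRs include some outside genes, which member DMRs cannot be, so shares of promoter and exon overlap are not on an equal footing. Introns alone held 119, of which 105 were gains (88.2%, beside 85.7%). CpG islands, stretches rich in CG sites, were overlapped by 15 member DMRs (12.7% of all DMRs overlapped one) and island shores by 20 (18.8% of all DMRs). Of the 15 at islands, 14 were gains (93.3%, beside 89% of all island DMRs), and the exception was the loss of FGFR4. The 26 member DMRs at islands or their shores had a median change of 16.1 points, and the 163 away from them 21.4 points. Of the 26, 7 were in FGFR1. Over the whole table the median was also lower at islands (15.5 points) and shores (18.9 points) than over all DMRs (19.9 points). Annotated repeats were overlapped by 9 member DMRs (6.76% of all DMRs overlapped one), in FGFR3, GAB2, IGFBP7, TGFB2, VEGFA, WNT2B and WNT5B, and all 9 were gains (beside 87.2% of all repeat DMRs).

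Of the 189 member DMRs, 29 (15.3%) in 10 genes were annotated to a further gene as well, so their levels may belong to either. Besides TGFB1, WNT2B and SMAD3, this concerned all 5 DMRs of FGF12, 2 each of APC2 and BMP7 and 1 each of DVL3, GDF11, SPRY1 and WNT5B.

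How much of each family had a DMR was counted from gene symbols of RefSeq (GRCg7b, names only). The table held 65 of the 68 member symbols. Of 197 protein-coding symbols that match the rule, 65 had a DMR (33.0%), beside 2738 of 14357 named genes (19.1%). The rule was chosen with earlier results of these data known, and gene length was not analysed. The difference in share is therefore a description and was not tested. All 4 FGF receptor symbols had a DMR and 5 of 19 FGF symbols did. R-spondin symbols had one in 3 of 4, Frizzled symbols in 3 of 10, Wnt ligand symbols in 3 of 18, SMAD symbols in 3 of 9, and BMP symbols in 2 of 10. None of the 7 DKK and SFRP symbols, secreted Wnt inhibitors, was among the genes with a DMR. The WNT7B gene is not counted in these numbers.

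Other genes of the same pathways that the rule does not name were taken from a list of 80, chosen with earlier results of these data known. Of these, 32 had a DMR (40.0%, beside 19.1% of named RefSeq genes). Of the 32, 28 had a positive average (87.5%, beside 84.8% of all genes with a DMR). Their 82 DMRs comprised 74 gains and 8 losses with a median change of 23.0 points. Over all DMRs, 86.6% were gains and the median change was 19.9 points. In the FGF and RAS-MAPK list 4 of 22 genes had a DMR. The adaptor SHC1 averaged 19.0 points, from a DMR also annotated to PYGO2. The RAS activator SOS1 averaged 30.4 points and its relative SOS2 averaged -22.4 points. In the BMP and TGF-beta list it was 5 of 17 genes, led in number by the BMP co-receptor RGMA with 10 gains and the SMAD repressor SKI with 5 gains. Their averages were 21.8 and 22.2 points. ENG, a TGF-beta co-receptor gene, had 1 gain and 1 loss and averaged -1.59 points, the negative average of this list. In the Wnt list 18 of 31 genes had a DMR and 16 of the 18 averages were positive. WLS, which carries Wnt ligands to the cell surface, averaged 27.7 points. The transcription factors TCF7 and LEF1 averaged 32.1 and 14.2 points. RNF43, the ubiquitin ligase that R-spondins act against, averaged 28.0 points. The exceptions were PRICKLE2 (-8.27 points) and PYGO1 (-21.0 points). The insulin and IGF list had 13 gains and no loss, beside 86.6% gains over all DMRs. The transcription factor genes FOXO1 and FOXO3, which insulin signaling holds out of the nucleus, averaged 27.7 and 27.9 points.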

How the data were processed

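The sources describe bisulfite sequencing of 3 epithelial and 3 fiber samples, base calling with CASAVA, trimming with Trimmomatic, and alignment to galGal6 with Bismark. The authors called DMRs with DSS, which smooths methylation along the chromosome and tests every site over the replicates. Versions are not given in the sources used here. Smoothing and pooling make nearby sites alike and hide the replicates, and selection by a p threshold favours well-covered regions with many sites.

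The values the authors deposited were the mean level of each DMR per cell type as a fraction, pooled over replicates, and an area statistic, a score that sums the test statistics over sites. Their column of differences was used only to check the computed change, which differed from it by at most 1e-07 points. Of 13180 lines, 551 were exact repeats, and lines were joined to distinct DMRs. Gene averages were unweighted. Shares have 95% Wilson intervals, which cover counting of DMRs only, and medians have order-statistic intervals. Both kinds treat DMRs as independent, although close DMRs of a gene mostly shared a direction, so the intervals may be too narrow. No test was possible without levels per replicate.

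Members are named with their averages, apart from results that are not reported here. Coordinates and levels are given for genes with a promoter DMR, with both directions, with at least 4 DMRs, for the 8 lowest and 8 highest averages, and for the 5 DMRs of largest area statistic in each direction. Members, lists and rules were chosen with earlier results of these data known. Alternatives were a minimum area statistic, change or number of sites, weighting by sites, leaving out shared DMRs and leaving out relatives. A further one, the 10 kb alternative, reduced each run of DMRs of a gene with gaps under 10 kb to 1 DMR. The relatives left out were the 7 members marked at the start, so FGF12, FGF13 and FGFRL1 stayed in. Python 3.11.15, NumPy 2.4.6, pandas 2.3.3, SciPy 1.17.1 and matplotlib 3.10.9 were used, and the calculations were tested on simulated data. RefSeq served for names only. The study's expression and accessibility data were not used here.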

Additional observations from a re-analysis of the deposited data

How the results depend on the processing

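The share of gains stayed between 87.9% and 90.2% of DMRs and the share of genes with a positive average between 86.3% and 91.8% under every alternative run. The minimum of 10 listed CG sites left out none of the 189 member DMRs, so it could change nothing. Keeping only promoter and gene body annotation also left the share of genes as it was. A minimum change of 20 points raised the median change to 25.2 points by construction. Genes with both directions numbered 4 with area statistics at or above the median and 7 with the minimum change. They numbered 5 under the 10 kb alternative, where fewer DMRs are left to disagree. Under the 10 kb alternative the gain share of the FGF group was 75% of 24 DMRs. That reduction left 1 DMR in FGFR1 and 1 in FGFR3, genes with gains only. The share of gains over all DMRs under the same reduction is not given here. Small groups reached 100% gains on few DMRs. SMAD genes did so under the area (2 DMRs), change (4 DMRs) and 10 kb (4 DMRs) alternatives. Insulin and IGF genes did so under the area (5 DMRs) and change (8 DMRs) alternatives, and the remaining genes under the change alternative (10 DMRs). Averages of genes with both directions changed sign with the DMRs kept. FGF12 averaged -8.64 points under the area and 10 kb alternatives, FGF13 -1.45 and INSR -2.27 points under the 10 kb alternative, FGFRL1 -1.54 points when weighted by sites, and WNT5B -9.94 points under the area and -1.20 points under the change alternative. No paired analysis was possible because the levels were pooled over replicates, and for the same reason no replicate could be left out. Depth is unknown, so it cannot be said which small changes it limits.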
